A study of Bos taurus with 6 samples.

Results

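H19, IGFBP5 and GADD45A are 3 of the 232 entries that the study listed as different in muscle of 2 cattle breeds, Angus and Luxi, and they were taken from the list by their gene symbols. RNA was sequenced from muscle of 3 Angus animals, a beef breed, and 3 Luxi animals, a Chinese breed, all 18 months old, and the labels name no treatment, no sex and no single muscle. The deposited values are 1 mean per breed, so the levels in single libraries given here were worked back from the mean count and the mean RPKM (reads scaled by gene length and by library depth). For many genes several splits of the reads give the same means, and each such split is called a solution. Libraries are named by their sequencing depth within the breed, because the sources do not tie them to single animals.

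H19 is an imprinted RNA that codes for no protein and is transcribed from the maternal copy next to IGF2, the gene of insulin-like growth factor 2. It is abundant in fetal tissues and stays expressed in skeletal muscle after birth. IGFBP5 is a secreted protein that binds insulin-like growth factors outside the cell and can hold them away from their receptor or carry them to it, and it is made by differentiating muscle cells and by connective tissue. GADD45A is a nuclear stress protein that rises after DNA damage, slows the cell cycle, and is known in skeletal muscle as a gene induced when fibres lose their nerve supply.

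All 3 genes were chosen by the breed means, fold changes and p-values of the deposited list, so the breed differences are given as a description without a test. H19 and GADD45A were listed as higher in Luxi, the direction of 36.6% of the listed entries, and IGFBP5 as higher in Angus, the direction of 63.4%. With 3 animals against 3, an exact permutation test cannot give a two-sided p below 0.1 in any case. In bulk muscle, fewer cells of a type and less RNA per cell cannot be told apart.

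The depths recovered for Angus were 5736365, 5577223 and 5429317 reads, and those for Luxi 6047227, 5890554 and 5799075. Of 20 markers of skeletal muscle fibres, MYH4 and MYL3 were among the listed entries, and the others were not analysed here. MYL3 had means of 365 RPKM in Angus and 139 RPKM in Luxi, and MYH4 of 28.3 and 1.00 RPKM. These genes alone do not measure the fibre content of the samples.

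H19 (gene identifier 100126192, 1145 bases in the table) had the highest Luxi mean of all 232 entries. The authors' deposited table gives it a Luxi mean of 481 RPKM against an Angus mean of 205 RPKM, a 2.35-fold difference, with a p of 5.54e-12 and an FDR of 3.84e-10. Its Angus mean was still at rank 5 of 232. The reads behind these means numbered 9752 in Luxi and 3970 in Angus. The median fold of the 63 entries higher in Luxi and above 0 in both breeds was 2.62, so H19 stood out by its level and not by the size of its fold, at rank 42 of 63.

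**Figure D1:**
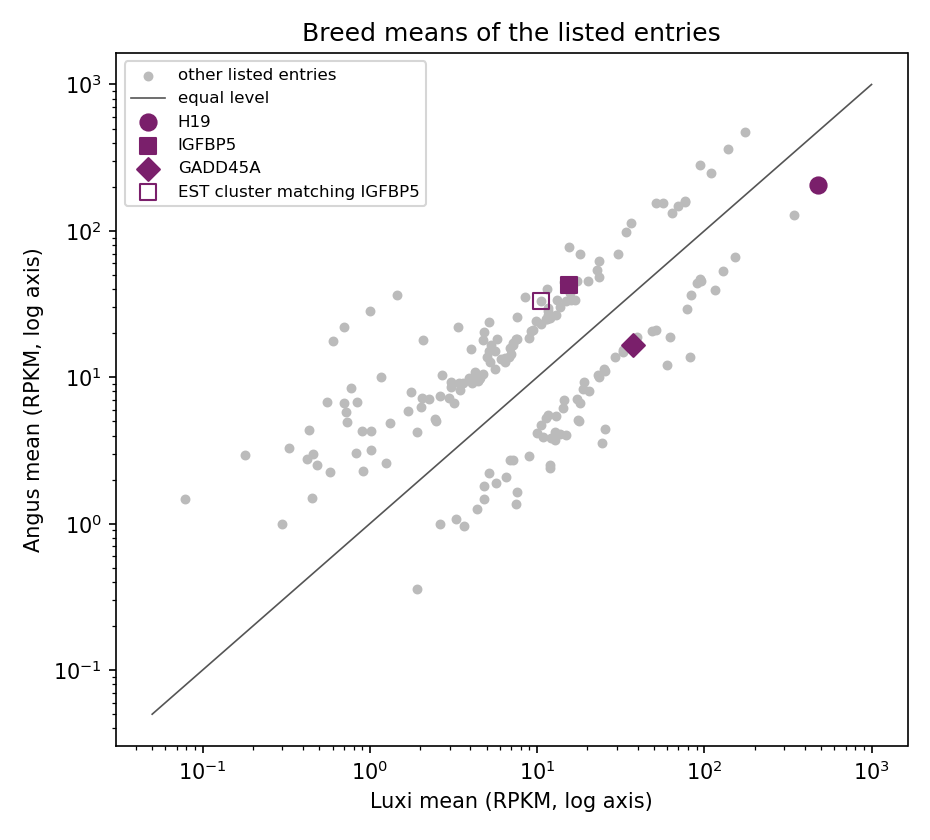
Mean level of each listed entry above 0 in both breeds, Luxi on the x axis and Angus on the y axis, both in RPKM on log axes, with the line of equal level. H19 lies at the far right with 481 RPKM in Luxi and 205 RPKM in Angus, GADD45A lies below the line, and IGFBP5 and the EST (expressed sequence tag) cluster that matches it lie above the line. No listed entry lies closer to the line than 2-fold.

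How H19 varied between animals of a breed was resolved only in part. In Angus the deepest library held 1398 to 2672 of the 3970 reads, or 213 to 407 RPKM. The middle Angus library held 0.157 to 403 RPKM and the shallowest 0 to 209 RPKM. Of these 3 the deepest was therefore above the shallowest in every one of the 970 solutions. In Luxi 6366 solutions remained, with 83.2 to 585 RPKM in the deepest library, 0 to 1360.5 RPKM in the middle one and 0 to 859 RPKM in the shallowest. The SD over the 3 libraries was 103 to 203 RPKM in Angus and 73.0 to 763 RPKM in Luxi, against a difference of 276 RPKM between the breed means. Whether that difference exceeds the spread in Luxi was thus not determined. Luxi libraries were above Angus libraries in 3 to 9 of the 9 possible pairs, so overlap of the breeds was not determined either.

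The direction of H19 held in every solution without any 1 of 5 of the 6 libraries. With all libraries the log2 ratio of Angus to Luxi was -1.23. Leaving out the deepest Angus library gave values between -2.20 and -1.26, and leaving out the deepest Luxi library between -1.73 and -1.07. In both cases H19 stayed at least 2-fold higher in Luxi in every solution. Without the middle or the shallowest Angus library, or without the shallowest Luxi library, it stayed higher in Luxi in every solution, with a log2 ratio no closer to 0 than -0.51, and by at least 2-fold in 652 of 970, 344 of 970 and 4606 of 6366 solutions. Leaving out the middle Luxi library gave values between -1.81 and 2.30, and Luxi was higher in 4842 of 6366 solutions, so neither direction nor call was determined there.

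IGFBP5 (gene identifier 404185, 1001 bases) was the only one of the 3 genes that was higher in Angus, and its Angus reads came mainly from 1 animal. The authors' deposited table gives it an Angus mean of 42.7 RPKM against a Luxi mean of 15.6 RPKM, a 2.74-fold difference, with a p of 2.77e-19 and an FDR of 3.50e-17. The median fold of the 122 entries higher in Angus and above 0 in both breeds was 2.67, and IGFBP5 was at rank 57 of these.

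The 730 Angus reads of IGFBP5 allowed 11 splits, and in each of them the deepest Angus library held most reads. From deepest to shallowest library, one end of the range was 505, 225 and 0 reads, a solution between them 560, 114 and 56 reads, and the other end 616, 1 and 113 reads. The deepest library thus held 69.2% to 84.4% of the Angus reads, at 87.9 to 107 RPKM. The middle Angus library held 0.179 to 40.3 RPKM and the shallowest 0 to 20.8 RPKM. One Angus animal was high and the others lay below the breed mean of 42.7 RPKM in every solution.

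The 275 Luxi reads of IGFBP5 allowed 9 splits, from 7, 177 and 91 reads to 74, 0 and 201 reads in order of falling depth. The deepest Luxi library had 1.16 to 12.2 RPKM, the middle one 0 to 30.02 RPKM and the shallowest 15.7 to 34.6 RPKM. In all solutions every Luxi library was below the deepest Angus library. The lowest Angus library had at most 10.9 RPKM and the highest Luxi library at least 23.6 RPKM, so the breeds overlapped in every solution, and Angus was above Luxi in 5 to 7 of 9 library pairs. The difference of the breed means, 27.1 RPKM, was smaller than the SD over the Angus libraries, which was 44.0 to 56.8 RPKM (n = 3).

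A separate entry of the table gave another reading of IGFBP5 in the same animals. It is an EST cluster of 755 bases whose deposited protein match is insulin-like growth factor binding protein 5 of the mouse, and it was picked after its values were seen. The sources do not say how reads were divided between it and the gene entry. The authors' deposited table gives it an Angus mean of 33.2 RPKM against a Luxi mean of 10.5 RPKM, a 3.15-fold difference, with a p of 4.87e-14. Its Angus reads were almost fully resolved, at 341 to 343, 49 to 53 and 34 to 36 reads in order of falling depth. The first of these libraries held 79.7% to 80.1% of them, at 78.7 to 79.2 RPKM, against 11.6 to 12.6 and 8.29 to 8.78 RPKM in the others. The Luxi libraries held 4 to 32, 22 to 96 and 40 to 86 reads, from deepest to shallowest, and at most 21.6 RPKM. Both IGFBP5 entries thus showed the same high Angus library, and the EST cluster overlapped between breeds as the gene entry did, with Angus above Luxi in 5 to 7 of 9 library pairs.

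**Figure D2:**
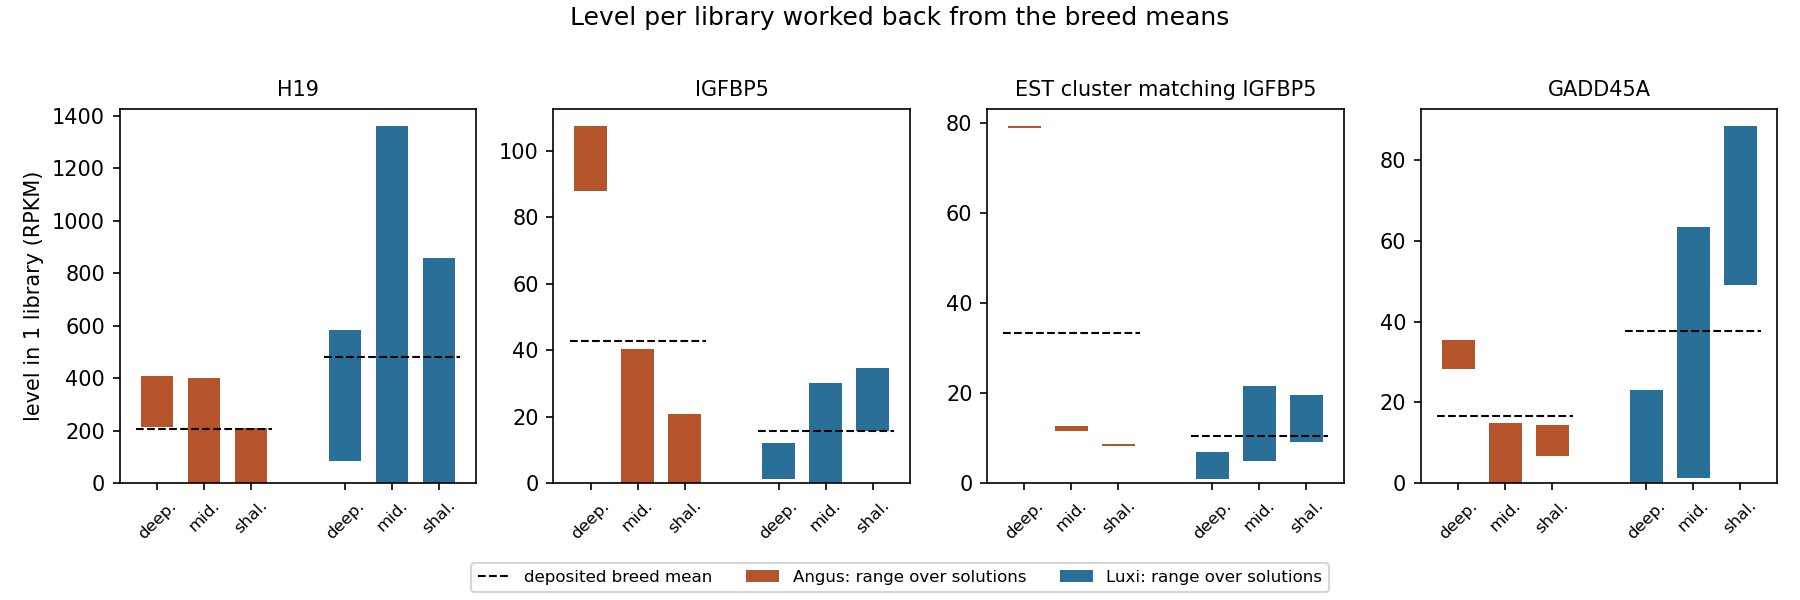
Level in RPKM of H19, IGFBP5, the EST cluster matching IGFBP5 and GADD45A in each library, with the deepest, middle and shallowest library of a breed from left to right, Angus in brown and Luxi in blue. Bars span all solutions and do not start at 0 unless a solution has no reads there, and dashed lines are the deposited breed means. The deepest Angus library of IGFBP5 lies at 87.9 to 107 RPKM, above all other libraries of that gene, and the shallowest Luxi library of GADD45A at 49.0 to 88.3 RPKM.

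The median library of IGFBP5 had 19.3 to 40.3 RPKM in Angus and 9.91 to 19.6 RPKM in Luxi, and was lower in Angus in 1 of 99 pairs of solutions. Leaving out the deepest Angus library ended the call of IGFBP5, with a difference of at least 2-fold in 0 of 11 solutions. Its higher mean in Angus did not hold in every solution either. Its log2 ratio of Angus to Luxi then lay between -0.57 and 0.37 for the gene entry, against 1.45 in full, and Angus was higher in 4 of 11 solutions. For the EST cluster it lay between -0.04 and -0.01, against 1.66 in full, so the mean of the remaining Angus libraries was close to that of Luxi. Without the middle or the shallowest Angus library the log2 ratio of the gene entry was 1.49 to 2.04 and 1.78 to 2.04. Without any 1 of the Luxi libraries it was 0.87 to 2.81, higher in Angus in every solution.

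Both IGFBP5 entries were among the 18 of 147 entries higher in Angus, or 12.2%, for which the deepest Angus library held over 2/3 of the Angus reads in every solution. The same held for the middle Angus library in 1.36% of these entries and for the shallowest in 3.4%. In at least some solutions it held for 24 entries in the deepest, 57 in the middle and 13 in the shallowest Angus library. These shares therefore depend on how closely each library was resolved, and they do not rank the libraries. Listed markers of mast cells and adipocytes were highest in the deepest library among the Angus libraries, and those of other cell types varied. That library was the highest of its breed in every solution for 25.9% of the 147 entries higher in Angus. The listed fibre markers MYH4 and MYL3 were highest there in no solution. The 3 mast cell markers TPSB1, CPA3 and KIT were all listed, with a summed level of 20.9 RPKM in the deepest Angus library against 2.12 to 6.59 RPKM in the other Angus libraries and 1.43 to 2.53 RPKM in Luxi. Of 6 adipocyte markers ADIPOQ and CIDEC were listed, with a summed level of 36.0 to 43.6 RPKM in the deepest Angus library, 0.753 to 19.7 RPKM in the other Angus libraries and 0.609 to 9.07 RPKM in Luxi, where CIDEC was listed at 0. Of 9 fibroblast markers PRG4 alone was listed, at 0.222 RPKM in the deepest Angus library, 0.381 and 0.470 RPKM in the other Angus libraries and 0.217 to 5.20 RPKM in Luxi. Of 4 epithelial markers KRT8 and KRT19 were listed, with a summed level of 16.1 RPKM in the deepest Angus library, 16.0 and 2.77 RPKM in the middle and the shallowest, and 1.26 to 3.77 RPKM in Luxi. Of 6 markers of Schwann cells and nerve, 3 were listed, 1 of which is not reported here. L1CAM was highest in the deepest library among the Angus libraries in every solution. NCAM1 held 17.3% to 46.4% of its Angus reads there, so its highest Angus library was not determined. Listed markers of mast cells, adipocytes, epithelium and fibres all passed the authors' filter as higher in Angus, and PRG4 as higher in Luxi. Their differences between the breeds therefore follow from the listing and add nothing to it. Markers that were not listed were not analysed here. The part of these cell types in the level of IGFBP5 was not tested.

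**Figure D3:**
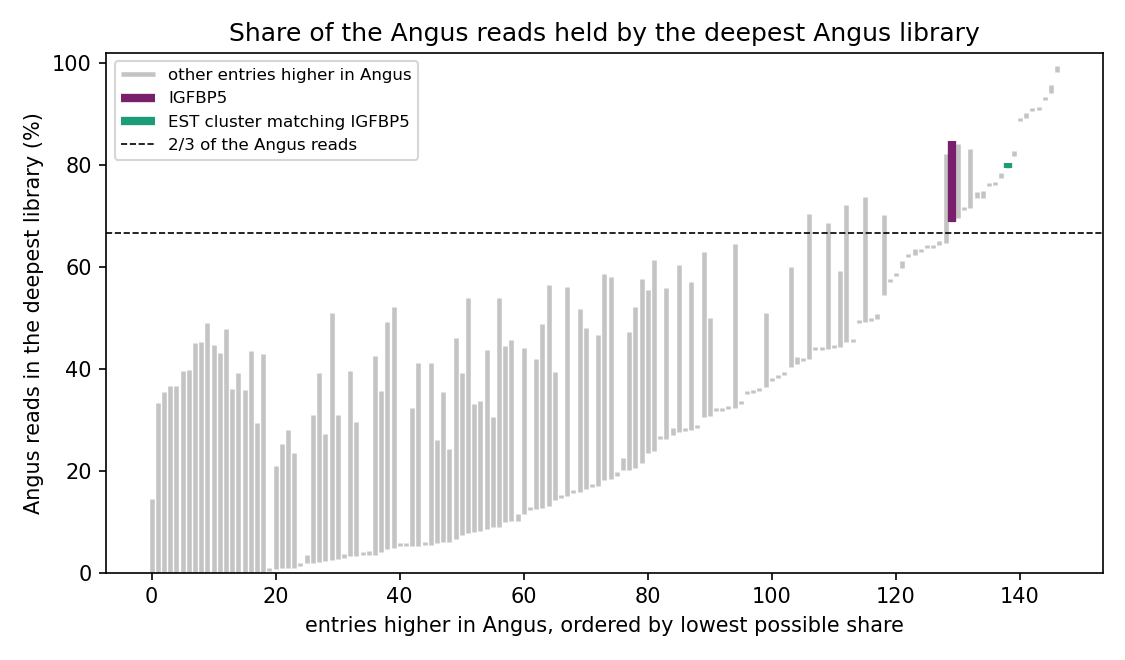
Percent of the Angus reads held by the deepest Angus library for the 147 entries higher in Angus, ordered by the lowest share that a solution allows, with bars spanning all solutions and a dashed line at 2/3. IGFBP5 spans 69.2% to 84.4% and the EST cluster matching it 79.7% to 80.1%, both above the line.

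GADD45A (gene identifier 505463, 1334 bases) was higher in Luxi, and its Luxi reads too were uneven between libraries. The authors' deposited table gives it a Luxi mean of 37.5 RPKM against an Angus mean of 16.6 RPKM, a 2.26-fold difference, with a p of 3.57e-14 and an FDR of 3.37e-12. That fold was at rank 49 of the 63 entries higher in Luxi and above 0 in both breeds.

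The 879 Luxi reads of GADD45A allowed 41 splits, from 1, 499 and 379 reads to 186, 10 and 683 reads in order of falling depth. The shallowest Luxi library had 49.0 to 88.3 RPKM, the middle one 1.27 to 63.5 RPKM and the deepest 0.124 to 23.1 RPKM. The shallowest thus held 43.1% to 77.7% of the Luxi reads, more than any other in 34 of 41 solutions. The deepest was below the Luxi mean in every solution. Of the 85 entries higher in Luxi, 0.0% had over 2/3 of their Luxi reads in the shallowest Luxi library in every solution, 2.35% in the middle one and 8.24% in the deepest. In at least some solutions this held for 17, 55 and 7 of these entries, in the same order. GADD45A itself passed 2/3 in the shallowest Luxi library in some solutions only, so the shares over every solution are no background for it. The 375 Angus reads allowed 6 splits. In 5 of them the libraries held 216 to 220, 103 to 111 and 48 to 52 reads in order of falling depth, and in the other one 271, 0 and 104 reads. In all 6 the deepest library was the high one of its breed, at 28.2 to 35.4 RPKM, against 0 to 14.9 and 6.63 to 14.4 RPKM in the others.

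The shallowest Luxi library of GADD45A was above all Angus libraries in every solution, and the deepest Luxi library was below the deepest Angus library in every solution. The breeds therefore overlapped, with Luxi above Angus in 5 to 7 of 9 library pairs. The difference of the breed means, 20.9 RPKM, was smaller than the SD over the Luxi libraries, 27.6 to 45.3 RPKM, and larger than that over the Angus libraries, 10.9 to 17.8 RPKM (n = 3). The median library was nevertheless higher in Luxi in every solution, at 17.4 to 54.1 RPKM against 13.8 to 14.9 RPKM in Angus.

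Leaving out the shallowest Luxi library ended the call of GADD45A. Its log2 ratio of Angus to Luxi then lay between -0.94 and 0.45, against -1.18 in full, and Luxi was higher in 32 of 41 solutions but by under 2-fold in each. Without the deepest Angus library the difference grew to a log2 ratio of -2.39 to -1.80, and without the deepest Luxi library to -1.76 to -1.43. Without the shallowest Angus library it lay between -1.08 and -0.80, at least 2-fold in 1 of 6 solutions. Without the middle Angus or the middle Luxi library GADD45A stayed higher in Luxi in every solution, at -1.11 to -0.59 and -1.75 to -0.57.

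**Figure D4:**
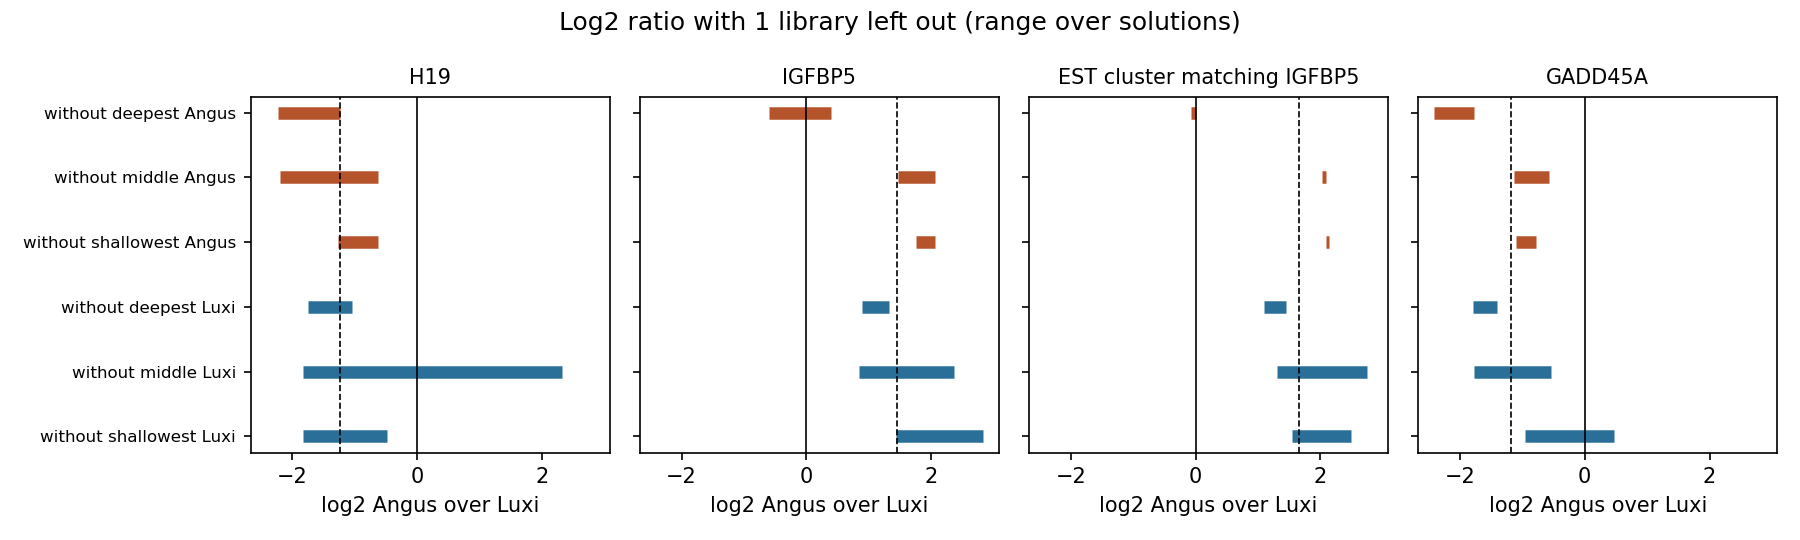
Log2 ratio of Angus over Luxi with each library left out in turn, for H19, IGFBP5, the EST cluster matching IGFBP5 and GADD45A, with bars spanning all solutions, a dashed line at the value with all 6 libraries and a solid line at 0. IGFBP5 reaches -0.57 to 0.37 without the deepest Angus library, GADD45A -0.94 to 0.45 without the shallowest Luxi library, and H19 -1.81 to 2.30 without the middle Luxi library.

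The spread between libraries holds both differences between animals and read counting. The smallest SD between libraries that any solution allowed was 15.8 times the SD from counting alone for IGFBP5 in Angus and 5.6 times in Luxi. It was 12.7 times for GADD45A in Luxi and 7.26 times in Angus, and 18.1 times for H19 in Angus and 8.67 times in Luxi. A test that takes the breed mean counts as 2 Poisson counts, with no term for this spread, was compared with the p-values in the authors' deposited table. It gave 2.81e-19 for IGFBP5, near the deposited 2.77e-19, and 1.35e-14 for GADD45A against the deposited 3.57e-14. For H19 it gave 1.03e-160 against the deposited 5.54e-12, a mismatch that was not resolved. Other entries higher in Luxi had deposited p-values of like size, 4.84e-12 for NAMPT, 4.41e-13 for HK2 and 2.07e-13 for EIF4EBP1. For ENAH, PFKFB4 and PRKAG3 the authors' value was printed as 0. MYL3, higher in Angus, had a deposited p of 5.31e-124. The deposited p of H19 is therefore not set against that of IGFBP5.

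IGFBP5 and GADD45A, listed in opposite directions, were highest in the same Angus library. In Angus the deepest library had the highest level for IGFBP5 and GADD45A in every solution, as it did for 26.2% of the 210 entries with Angus reads. For H19 it held the most reads, not scaled by depth, in 671 of 970 solutions. In Luxi the deepest library led for none of the 3 genes in any solution, which held for 72.0% of the 207 entries with Luxi reads. Per length, H19 was 12.4 times as high as GADD45A in Angus and 12.8 times in Luxi, a ratio of means that differed little between the breeds. H19 was 4.80 times as high as IGFBP5 in Angus and 30.8 times in Luxi. How both ratios compare between the breeds follows from the breed folds by which the genes were listed, and adds nothing to them.

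Of the 247 genes on 9 lists of related pathways, 9 were among the listed entries, 6 of them besides H19, IGFBP5 and GADD45A. The table holds listed entries alone, so these counts have no share over all measured genes to be read against. Of 30 genes of the IGF system (ligands, receptors, binding proteins, their proteases and docking proteins), IGFBP5 alone was listed, and IGF1, IGF2 and their receptors were not analysed here. Of 34 genes of growth hormone and insulin signalling, 2 were listed. CISH, an inhibitor of cytokine receptor signalling that growth hormone induces, has means of 77.2 RPKM for Angus and 15.6 RPKM for Luxi in the authors' deposited table. EIF4EBP1, which holds back translation until insulin or growth factor signals release it, has means of 43.8 RPKM for Angus and 90.4 RPKM for Luxi there, also from the authors' deposited table.

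Of 41 imprinted genes, H19 and DLK1 were listed, both higher in Luxi. DLK1, a transmembrane regulator of muscle growth and fat cell differentiation that is expressed from the paternal copy, had 36, 14 and 17 reads in the Luxi libraries, in order of falling depth, and 0 of 16742905 Angus reads. That every Luxi library lay above every Angus library is fixed by the 0 Angus reads, as for any listed entry with reads in every Luxi library and none in Angus. Against a limit of 3 reads over the Angus libraries together, the Luxi reads of DLK1 as counted were at least 21.1-fold higher. The counting error of the Luxi reads is not in that value. DIRAS3, a growth-restraining GTPase that is imprinted in humans, was named after its values were seen. It lies within 10 genes of GADD45A in the reference gene order and is the only listed entry there. DIRAS3 had 2, 9 and 43 reads in the Angus libraries, in order of falling depth, and 0 in Luxi. That is at least 19.1-fold higher in Angus by the same limit over the Luxi libraries, with the Angus reads taken as counted. DIRAS3 went the opposite way to its neighbour. None of the 20 nearest genes of H19, which include IGF2, INS and the fast troponin genes TNNT3 and TNNI2, and none of the 20 nearest of IGFBP5, which include IGFBP2, was listed.

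Of 32 genes of the GADD45 family, p53 targets and growth arrest, GADD45A alone was listed. Of 21 genes of the integrated stress response, 1 was listed, PPP1R15A, also known as a growth arrest and DNA damage gene, which restarts translation after stress. Its means were 62.5 RPKM for Angus and 23.4 RPKM for Luxi in the authors' deposited table, the opposite direction to GADD45A, and 668 to 785 of its 981 Luxi reads were in the deepest Luxi library. Of 26 genes of muscle denervation and atrophy, 3 were listed. Besides GADD45A these were the embryonic myosin MYH3, at 13.8 RPKM for Angus and 5.02 RPKM for Luxi, and the neural cell adhesion molecule NCAM1, at 5.17 and 2.46 RPKM, in the authors' deposited table. For MYH3 the deepest Luxi library held 421 to 463 of the 555 Luxi reads. The lists for myogenesis and muscle stem cells (33 genes), the cell cycle (31 genes) and matrix partners of IGFBP5 (15 genes) held 0 listed entries.

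The authors' annotation gave IGFBP5 or GADD45A 7 terms that 3 or more entries held, over a list in which 63.4% were higher in Angus. Cell growth, a term of IGFBP5, was attached to 5 entries higher in Angus and 0 higher in Luxi, among them both IGFBP5 entries. Translation was attached to 3 and 2, negative regulation of cell proliferation to 2 and 1. Both terms also held entries without a gene symbol, so their entries need not be separate genes. The 2 higher in Angus with the latter term were IGFBP5 and such an entry. Of the terms of GADD45A, programmed cell death was attached to 3 entries higher in Angus and 2 higher in Luxi, DNA metabolic process to 2 and 1, binding to 14 and 6, and intracellular membrane-bounded organelle to 25 and 9. Binding and the organelle term also held entries without a gene symbol, so their entries need not be separate genes. Cell cycle process was attached to 0 and 2 entries and regulation of cell cycle to 1 and 1. Besides the IGFBP5 entries, the cell growth term held CISH, the cytokine receptor IL17RB and the secreted matrix protein WISP2, and IL17RB and WISP2 were named after their values were seen. In order of falling depth of the Angus libraries, WISP2 had 275, 18 and 16 reads and IL17RB 101, 3 and 7 reads. The deepest Angus library led in every solution for 25.9% of the 147 entries higher in Angus. CISH differed: the shallowest Angus library held 1103 to 1775 of its 2492 reads.

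Likeness to each gene was measured over 118 named entries with reads in both breeds, as the distance between the log2 RPKM values of the breed means. Among the nearest to IGFBP5 were the calcium-binding protein S100A1 at a distance of 0.18 and the complex I subunit NDUFA3 at 0.31. Nearest to GADD45A were ENAH, a regulator of actin filaments, at 0.21, PRKAG3, a subunit of the energy sensor AMPK in glycolytic muscle, at 0.24 and the hexokinase HK2 at 0.25. H19 had no close match, and its nearest entries were MYL3 at 1.97, which was higher in Angus, PFKFB4 at 2.32 and NAMPT at 2.71. This likeness rests on the 2 breed means alone.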

How the data were processed

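Muscle RNA of 3 Angus and 3 Luxi cattle was sequenced from 1 microgram of total RNA on an Illumina HiSeq2000, per the labels' protocols. Not given in the sources used here: aligner, gene set, strandedness and statistical test. The deposited table holds, for 232 entries that passed the authors' filter, estimated counts that are means of whole read counts over 3 libraries, since 3 times each value was whole within 0.100. The authors also deposited RPKM means, a log2 ratio of Luxi over Angus, a p-value and an FDR. The largest deposited p-value was 3.86e-05. No count model was fitted, since 1 mean per breed allows none.

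Reads per library were recovered with Python 3.11.15 and numba 0.67.0 from the mean count and the mean RPKM, which is printed to 6 significant digits and weights each library by its depth. A search over depths left 1 set per breed, for which all 210 Angus and 207 Luxi entries with reads had a whole-number solution. On 4 simulated tables with 834 entries in all, the depths were found within 10 reads for 4 tables, the solutions held the simulated reads for 834 entries, and 294 of 294 single solutions equalled them. The simulated depths lay within 0.5% of the recovered ones. The search let the outer depths lie up to 3.0% beyond the depths that the entries imply. Depths outside that search were therefore not checked. Ranges are over all solutions. A call means at least 2-fold and a recomputed 2-count Poisson p (Audic and Claverie, doubled, scipy 1.17.1) no larger than the largest deposited one. Reads carry no molecular identifiers, so limits from reads cover counting error only, and only in the breed with 0 reads. RefSeq genes of the cattle assembly ARS-UCD2.0 served for names and gene order alone, and 148 of the 163 gene identifiers were found there.

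The members, the 9 gene lists and the 10 marker lists were chosen with earlier results of these data known. Named are the members, the 3 entries nearest to each (1 of them is not reported here), every listed entry of the 9 lists, and, outside this rule, listed markers of the cell types described and the entries said to be picked after their values were seen. The labels do not say whether animals of a breed were related or handled together, so the spread between libraries is that between these samples. Alternatives were mean counts, a pseudocount of 1 RPKM, summed reads, and each library left out.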

Additional observations from a re-analysis of the deposited data

How the results depend on the processing

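With all 6 libraries, the direction of H19, IGFBP5 and GADD45A and a difference of at least 2-fold held when mean counts replaced RPKM, with a pseudocount of 1 RPKM, and with summed reads over summed depth (log2 ratios -1.30 to -1.21, 1.40 to 1.49 and -1.23 to -1.13). With 1 library left out, the log2 ratio of Angus over Luxi ranged over all libraries and solutions from -2.20 to 2.30 for H19, from -0.57 to 2.81 for IGFBP5 and from -2.39 to 0.45 for GADD45A. The sign could turn only without the middle Luxi library for H19 (to 2.30), the deepest Angus library for IGFBP5 (to -0.57) and the shallowest Luxi library for GADD45A (to 0.45), and fewer samples stand behind each such value. With depths fixed at their best values, the largest share of 1 library moved by under 1 percentage point for each of the 3 genes. By difference of log2 ratio in place of distance, 1 of the 3 nearest entries of H19 and 0 of those of IGFBP5 and GADD45A stayed. No paired analysis was possible because the labels give no replicate numbers shared by the breeds and the table holds means. The reads of abundant genes such as H19 have many solutions, which limits what can be said of single animals.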
